A study of Mus musculus with 6 samples.

Results

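MHC class II antigen presentation was followed in mouse pancreatic islets through 8 genes: the classical chains H2-Aa, H2-Ab1 and H2-Eb1, the peptide-loading chains H2-DMa, H2-DMb1 and H2-DMb2, the invariant chain Cd74 and the class II transactivator Ciita. They were chosen by name, and their probes were found by the RefSeq accession that the array annotation gives. Each gene had 1 probe, so 8 of 39426 probes were members, and 7 of the 8 entered a test over 19021 genes. The probe of H2-DMb2 was well above background on no array and was not tested. Ciita lies on chromosome 16, Cd74 on chromosome 18, and the other members lie on chromosome 17.

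The islets came from ICR mice labelled male and 16 weeks old, and every group carried floxed Trsp alleles (TrspFlox/Flox). Trsp encodes the selenocysteine transfer RNA, which all selenoprotein synthesis needs. Controls (TrspFF) carried no Cre in their genotype label, Trsp-RIPKO carried RIP-Cre, driven by the rat insulin promoter, and Trsp-Ins1KO carried Ins1-Cre, so that the deletion is aimed at insulin-producing cells and not at leukocytes. Each group had 2 one-colour arrays (n = 2 throughout), and the labels do not say whether different animals gave them. The p-values thus rest on the spread within these pairs of arrays, which may be technical. ICR is an outbred stock, and the labels give no MHC haplotype.

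Class II molecules are pairs of an alpha and a beta chain that show peptides from the endosome to CD4 T cells. The invariant chain fills the groove of new class II molecules, endosomal proteases trim it, and the H2-DM alpha and beta chains then exchange the last fragment for peptide. Dendritic cells, macrophages and B cells make these proteins all the time, Ciita switches the genes on, and in islets the resident macrophages are known for displaying them.

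The promoters of class II genes share short elements, named X and Y boxes, to which Ciita is brought by factors bound there, and the windows of H2-Eb1, which was higher in Trsp-Ins1KO, H2-DMb1 and H2-Aa, which were lower, and H2-DMb2, the untested paralog, are printed for that reason. Each window holds 250 bases before and 50 after the annotated start, from RefSeq on GRCm38.p6. The windows are chr17:34305617-34305916 (plus strand) for H2-Eb1, chr17:34152941-34153240 (plus strand) for H2-DMb1, chr17:34144999-34145298 (plus strand) for H2-DMb2 and chr17:34287774-34288073 (minus strand) for H2-Aa. Capitals mark the Y box core ATTGG on either strand and the 13-base run AACTGATGATGCT, which is the longest run that H2-Eb1 and H2-DMb1 share and was picked after the sequences were seen.
H2-Eb1 promoter: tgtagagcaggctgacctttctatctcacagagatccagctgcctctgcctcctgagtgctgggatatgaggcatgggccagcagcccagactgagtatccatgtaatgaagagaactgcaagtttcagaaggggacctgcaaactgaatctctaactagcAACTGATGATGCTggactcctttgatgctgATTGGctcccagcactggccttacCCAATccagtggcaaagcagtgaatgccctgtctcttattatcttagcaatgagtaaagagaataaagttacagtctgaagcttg
H2-DMb1 promoter: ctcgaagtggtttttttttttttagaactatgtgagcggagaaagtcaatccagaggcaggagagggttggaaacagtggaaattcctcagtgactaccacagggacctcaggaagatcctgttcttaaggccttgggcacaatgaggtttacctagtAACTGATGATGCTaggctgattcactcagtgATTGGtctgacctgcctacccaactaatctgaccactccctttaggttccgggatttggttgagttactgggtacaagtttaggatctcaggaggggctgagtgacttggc
H2-DMb2 promoter: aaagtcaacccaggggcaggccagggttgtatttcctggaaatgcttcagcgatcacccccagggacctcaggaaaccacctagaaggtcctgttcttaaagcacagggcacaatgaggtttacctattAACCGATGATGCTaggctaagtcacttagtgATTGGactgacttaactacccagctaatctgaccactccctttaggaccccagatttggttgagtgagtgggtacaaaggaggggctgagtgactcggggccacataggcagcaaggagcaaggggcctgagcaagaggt
H2-Aa promoter: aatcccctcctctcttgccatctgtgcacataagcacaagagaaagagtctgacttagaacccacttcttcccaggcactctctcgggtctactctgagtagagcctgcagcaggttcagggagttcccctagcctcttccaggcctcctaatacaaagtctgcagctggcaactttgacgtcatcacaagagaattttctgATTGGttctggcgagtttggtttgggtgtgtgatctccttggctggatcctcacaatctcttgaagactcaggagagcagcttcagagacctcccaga
The run stood 17 bases before the Y box core in H2-Eb1 and 18 bases before it in H2-DMb1. H2-DMb2, the close paralog of H2-DMb1, held the run with T4C, counted from 1 at its 5′ end, also 18 bases before the core. In H2-Aa the 13 letters were not found within 1 mismatch, and the core began 48 bases before the start. Of 32851 promoter windows, 37.4% held ATTGG on either strand, 3 held the exact run and 10 held both ATTGG and the run with up to 1 mismatch. That H2-Eb1 and H2-DMb1 both hold the run follows from how it was picked. Their probes went opposite ways in Trsp-Ins1KO, and the part of the promoters in these values was not tested.

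Some facts of the arrays bear on all values. The 75th percentile of processed intensity was 110.7 to 121.9 on the Trsp-Ins1KO arrays and 203.0 to 247.2 on the other 4, and 51.4% to 52.2% against 57.5% to 61.0% of probes were well above background. TrspFF and Trsp-Ins1KO shared a slide, whereas Trsp-RIPKO had a slide of its own, so slide and group cannot be told apart there. In the authors' deposited table, the columns named TrspFF follow the Trsp-Ins1KO scanner files and the reverse (r = 1.0 over 19486 probes), and the sources used here do not settle which names are right. Groups below are those of the scanner files, and under the table's names every Trsp-Ins1KO minus TrspFF difference changes sign. The pair of arrays that stood apart stays the same. Although all arrays are labelled male, Xist, the RNA of the inactive X chromosome, was well above background on both TrspFF and both Trsp-RIPKO arrays and on neither Trsp-Ins1KO array, while the Y-linked Ddx3y was above background on all 6. No probe was named for Trsp itself, and all 10 islet endocrine markers, Ins1 and Gcg among them, were above background on every array.

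Compared with TrspFF, the class II genes of Trsp-Ins1KO islets split. Cd74 was 1.86-fold higher and H2-Eb1 1.71-fold higher, while H2-Aa was 4.55-fold lower, with 1 of its 2 Trsp-Ins1KO arrays above background, and H2-DMb1 was at least 3.28-fold lower with neither above it. H2-Ab1, the beta chain that pairs with H2-Aa, was 1.31-fold higher. By limma over all genes tested (Benjamini-Hochberg adjusted p under 0.05), 3 of the 7 tested members were higher and 2 lower, where 45.9% of all genes were called, 23.0% higher and 23.0% lower. The median difference was 0.68 on the log2 scale over the 7 members and -0.01 over all genes. The member at that median was H2-DMa, which was near the lower end of detection and not called (limma, adjusted p = 0.0668). Before scaling, its mean intensity was 23.3 on TrspFF and 18.8 on Trsp-Ins1KO. In Trsp-RIPKO against TrspFF, 1 member was higher and 0 were lower, where 36.4% of all genes were called (18.9% higher, 17.5% lower), and the median was 0.18 against -0.00. By unadjusted p, 3 of the 7 members were below 0.05 in that comparison, 7 in Trsp-Ins1KO against TrspFF and 5 between the knockout lines. The share of all genes at that unadjusted threshold was not computed, so these counts cannot be set against it. The 7 include Ciita, with neither group above background in Trsp-Ins1KO against TrspFF. Between the knockout lines, 2 members were higher and 2 lower in Trsp-Ins1KO, where 38.7% of all genes were called (19.3% higher, 19.4% lower), with a median of 0.38 against -0.01. The first and second comparison share the TrspFF arrays and are given side by side.

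**Figure D1:**
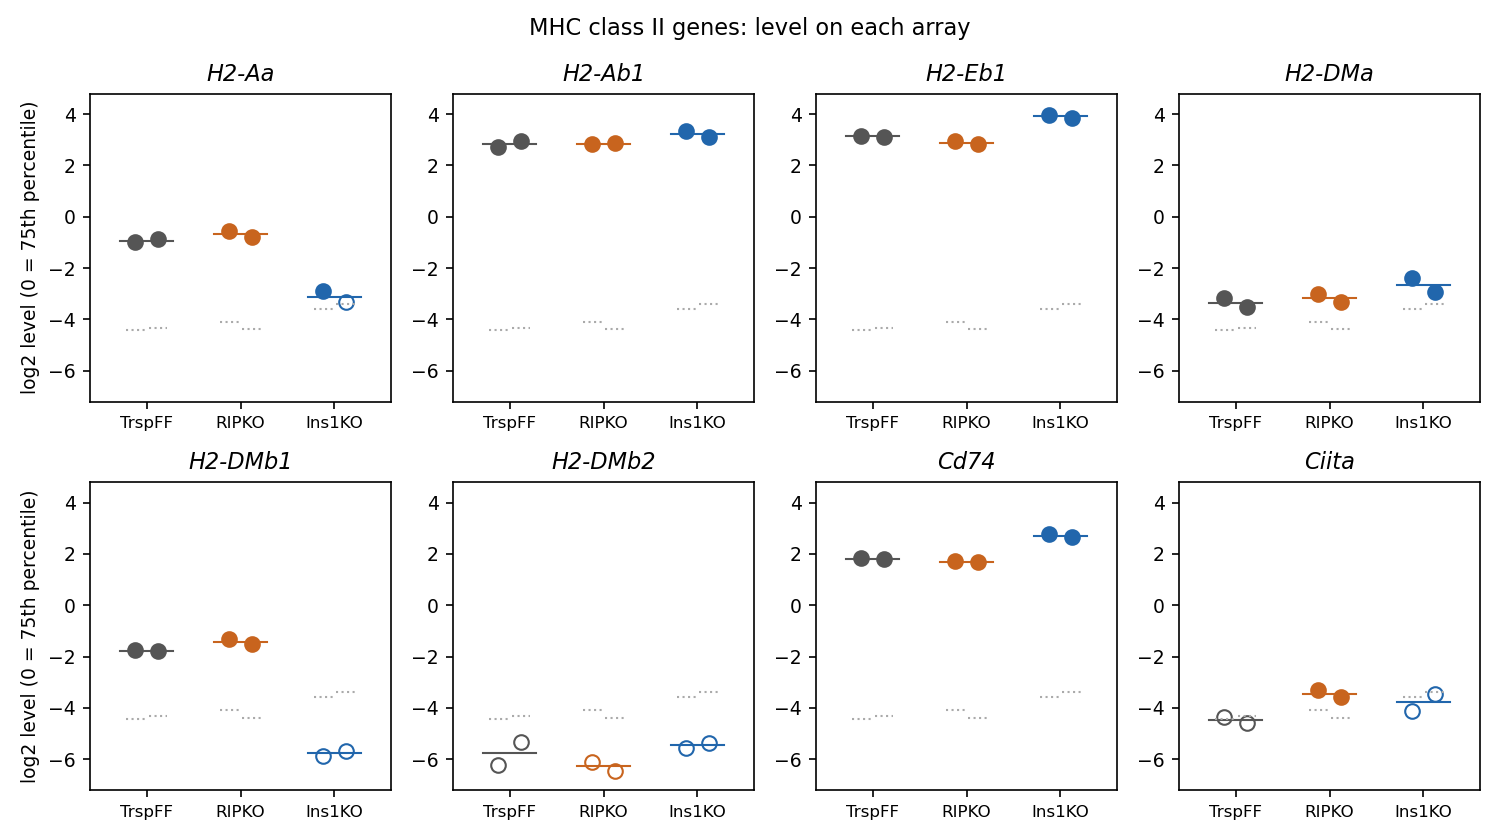
Level of each of the 8 members on each of the 6 arrays (y axis: log2 processed intensity minus the array's 75th percentile; x axis: group), with solid lines at group means, open symbols for probes not well above background and dotted lines at each array's lowest level among probes well above background. H2-Aa and H2-DMb1 drop on the Trsp-Ins1KO arrays, where H2-Eb1 and Cd74 are highest.

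Levels are log2 of the processed intensity minus the array's 75th percentile, so that 0 is the 75th percentile of that array, and no probe's level is set against another probe's. Before that scaling, mean intensities of the 3 members called higher were lower in Trsp-Ins1KO than in TrspFF. H2-Eb1 read 2196 and 1886 on TrspFF and 1916 and 1581 on Trsp-Ins1KO, Cd74 875.1 and 765.2 against 831.2 and 697.4, and H2-Ab1 1633 and 1664 against 1233 and 948.8. The higher levels reported for these genes are therefore relative to the lower 75th percentile of the Trsp-Ins1KO arrays. H2-Eb1, the beta chain of the I-E molecule, stood at 3.15 and 3.11 on the TrspFF arrays, 2.94 and 2.82 on Trsp-RIPKO and 3.97 and 3.84 on Trsp-Ins1KO. Both Trsp-Ins1KO arrays lay above the other 4, and no groups overlapped. The difference from TrspFF was 0.77 ± 0.0845 (SE; limma, adjusted p = 0.0033), and 7.58% of the 17028 genes measured in both groups rose as far or further. From Trsp-RIPKO it was 1.02 (limma, adjusted p = 0.00199), and Trsp-RIPKO minus TrspFF was -0.25 (adjusted p = 0.0709). H2-Eb1 was called lower in Trsp-RIPKO against TrspFF in 3 of 18 alternatives that keep the scanner files' names. In bulk islets, fewer cells of a type and less RNA per cell cannot be told apart.

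Cd74, which guards the peptide groove during assembly and also sits at the cell surface as a receptor for the cytokine MIF, followed the same order. Its levels were 1.82 and 1.81 on TrspFF, 1.73 and 1.67 on Trsp-RIPKO, and 2.77 and 2.65 on Trsp-Ins1KO. The Trsp-Ins1KO pair stood clear of the others, with a difference of 0.89 ± 0.0739 (SE; limma, adjusted p = 0.00205) from TrspFF and 1.01 (adjusted p = 0.00151) from Trsp-RIPKO. The Trsp-RIPKO arrays lay just under TrspFF, by -0.12 with a 95% interval of -0.31 to 0.07.

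H2-Ab1, the I-A beta chain, moved least of the classical chains. Its levels were 2.72 and 2.93 on TrspFF, 2.83 and 2.86 on Trsp-RIPKO and 3.34 and 3.1 on Trsp-Ins1KO. The first pairs overlapped (0.01, 95% interval -0.28 to 0.31), and the Trsp-Ins1KO arrays lay above all others. The difference of 0.39 ± 0.117 (SE) from TrspFF passed the limma test narrowly (adjusted p = 0.045). That call was lost in 11 of 19 alternatives that keep the scanner files' names, among them the fit within the shared slide (adjusted p = 0.0801) and the fit with replicate number as a block (adjusted p = 0.0723). Without TrspFF replicate 1 the adjusted p was 0.2, and without Trsp-Ins1KO replicate 1 it was 0.128.

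H2-Aa, the I-A alpha chain, went the other way. Its levels were -0.997 and -0.865 on TrspFF, -0.54 and -0.77 on Trsp-RIPKO, and -2.90 and -3.33 on Trsp-Ins1KO, the last not well above background. In intensity, the TrspFF arrays gave 123.9 and 119.7 and the Trsp-Ins1KO arrays 16.3 and 11.0. Trsp-Ins1KO lay below the other 4 arrays with no overlap, by -2.18 ± 0.170 (SE; limma, adjusted p = 0.00186) from TrspFF and by -2.46 (adjusted p = 0.00132) from Trsp-RIPKO. Since 1 of the Trsp-Ins1KO values is not above background, the sizes of these drops are less certain than their direction. The H2-Aa probe also entered the test only through TrspFF and Trsp-RIPKO, the groups where it is high. With no filter on dim probes both drops were still called (limma, adjusted p = 0.0103 from TrspFF and 0.00789 from Trsp-RIPKO). Trsp-RIPKO did not pass the test against TrspFF (0.28, adjusted p = 0.245).

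The H2-DM pair split as well. H2-DMb1, the beta chain that with H2-DMa catalyses peptide exchange, stood at -1.75 and -1.79 on TrspFF and -1.32 and -1.52 on Trsp-RIPKO. On Trsp-Ins1KO it read -5.86 and -5.67, and neither array was well above background. Intensities were 73.3 and 62.9 on TrspFF, 86.0 and 71.0 on Trsp-RIPKO, and 2.10 and 2.17 on Trsp-Ins1KO. The measured difference of -3.99 from TrspFF (limma, adjusted p = 0.000321) is therefore given as at least 3.28-fold lower, and that from Trsp-RIPKO (-4.35, adjusted p = 0.000194) as at least 4.19-fold lower. Such a bound sets the bright group's mean against the dim arrays' lowest signal among probes well above background, or the probe's own level where that is higher. A probe above that lowest signal can still lack the flag. H2-Aa did so on Trsp-Ins1KO replicate 2, at -3.33 where the lowest signal was -3.39, so the bounds are approximate. The H2-DMb1 probe entered the test only through TrspFF and Trsp-RIPKO, the groups where it is high. The p-values of the drops rest partly on Trsp-Ins1KO readings that are not above background. With no filter on dim probes both drops were still called (limma, adjusted p = 0.00377 from TrspFF and 0.00208 from Trsp-RIPKO). Trsp-RIPKO lay above TrspFF without overlap but just missed the threshold (0.35, adjusted p = 0.052).

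H2-DMa, the alpha chain of the same pair, was near the lower end of detection on all arrays. It read -3.16 and -3.53 on TrspFF, -3.00 and -3.33 on Trsp-RIPKO and -2.40 and -2.93 on Trsp-Ins1KO, well above background on all 6. TrspFF and Trsp-RIPKO overlapped, the Trsp-Ins1KO arrays were highest, and no comparison passed the limma test (0.68 from TrspFF, adjusted p = 0.0668). The difference from TrspFF was called in 5 of 19 alternatives, and leaving out 1 array moved it between 0.41 and 0.94. H2-DMb1 and H2-DMb2 are near copies, and which of them a probe detects was not tested, since probe sequences were not used here. H2-DMb2 read between -6.46 and -5.32 on the 6 arrays, with no array above background.

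Ciita, the transactivator, was the only member called in Trsp-RIPKO against TrspFF. Its levels were -4.37 and -4.57 on TrspFF, -3.30 and -3.59 on Trsp-RIPKO and -4.11 and -3.45 on Trsp-Ins1KO, and only the Trsp-RIPKO arrays were well above background. Ciita was at least 1.87-fold higher there (1.03 ± 0.241 SE; limma, adjusted p = 0.0292). The probe entered the test only through Trsp-RIPKO, the group where it is high, and with no filter on dim probes the call was lost (adjusted p = 0.0792). It was also lost when any 1 TrspFF or Trsp-RIPKO array was left out (adjusted p = 0.083 to 0.124). Trsp-Ins1KO minus TrspFF was 0.69 (adjusted p = 0.0686) with neither group above background, so no fold is given.

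**Figure D2:**
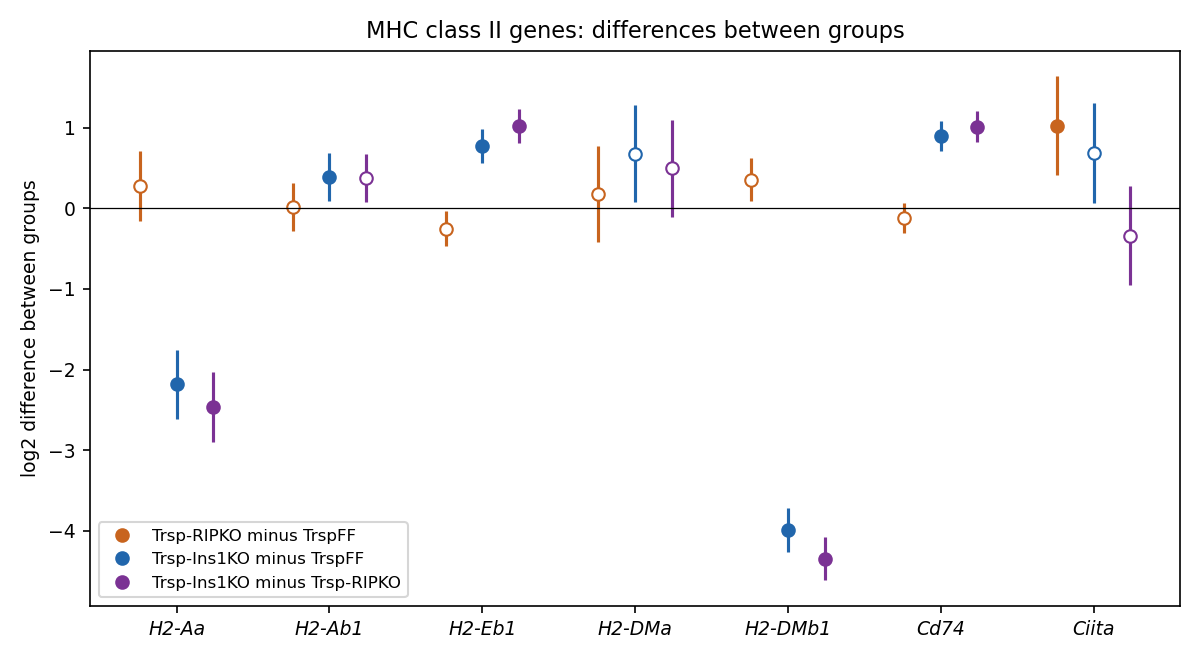
Log2 difference of the 7 tested members in each of the 3 comparisons (points, filled where called at adjusted p under 0.05; bars, 95% interval of the limma fit). H2-Aa at -2.18 and H2-DMb1 at -3.99 lie below 0 in Trsp-Ins1KO minus TrspFF, where Cd74 at 0.89 and H2-Eb1 at 0.77 lie above it.

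Because partner chains are read on the same array, the change of their ratio does not depend on the scaling between arrays. H2-Aa over H2-Ab1 differed by -2.58 on the log2 scale between Trsp-Ins1KO and TrspFF, where the paired arrays of a group differed by 0.192 and 0.0764. For H2-DMb1 over H2-DMa no exact ratio is given, since H2-DMb1 is below background in Trsp-Ins1KO. Against TrspFF, H2-Aa over H2-Ab1 differed by 0.26 in Trsp-RIPKO, beside gaps of 0.260 and 0.0764. H2-Eb1 over H2-Ab1 differed by 0.38 in Trsp-Ins1KO (gaps of 0.101 and 0.247), Cd74 over H2-Ab1 by 0.50 (0.125 and 0.221) and H2-Eb1 over Cd74 by -0.12 (0.0240 and 0.0257). Each of these 4 ratios thus changed in Trsp-Ins1KO by more than the array pairs differed, most for H2-Aa over H2-Ab1. The change of H2-Eb1 over Cd74 was not particular to Trsp-Ins1KO. It was -0.13 in Trsp-RIPKO against TrspFF (gaps of 0.0559 and 0.0257) and 0.0088 between the knockout lines. In Trsp-RIPKO, H2-Eb1 over H2-Ab1 differed from TrspFF by -0.26 (0.146 and 0.247) and Cd74 over H2-Ab1 by -0.13 (0.0903 and 0.221). Mouse class II genes are highly polymorphic, and the files hold neither genotypes nor the probes' match to each allele. For H2-Aa and H2-DMb1, less transcript and a transcript whose allele pairs poorly with the probe cannot be told apart.

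The size of the drops also depended on the background correction. With normexp on the median spot and local background intensity, with an offset of 50 added, the Trsp-Ins1KO minus TrspFF differences shrank to -0.36 for H2-Aa and -0.44 for H2-DMb1, both still called by limma (adjusted p = 0.000465 and 4.27e-05). Cd74 and H2-Eb1 were 0.62 and 0.58 higher under that correction.

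Genes that serve the class II pathway did not share 1 direction. Over all genes, 23.0% were called higher and 23.0% lower in Trsp-Ins1KO against TrspFF. In Trsp-RIPKO against TrspFF, 18.9% were called higher and 17.5% lower. Of 6 loading proteases and reductase genes, 2 rose and 1 fell in Trsp-Ins1KO against TrspFF (median 0.16). Ctsd and Ctsb, lysosomal proteases, were higher by 0.45 and 0.38, and Ifi30, the lysosomal thiol reductase that opens disulfide bonds of antigens, fell by 0.65 on the log2 scale (limma, adjusted p = 0.0142). Ctsl, which trims the invariant chain in thymic epithelium, fell by 0.53 in Trsp-RIPKO (adjusted p = 0.0112), and Ctss, which does so in dendritic cells and B cells, was not called (0.07 in Trsp-Ins1KO).

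Of 9 genes for class II transcription and turnover, 2 rose and 2 fell in Trsp-Ins1KO against TrspFF, and 1 rose and 1 fell in Trsp-RIPKO. Over all genes, 45.9% were called in either direction in the first comparison and 36.4% in the second. Marchf1, a ubiquitin ligase that removes class II from the surface, was higher by 1.09 in Trsp-Ins1KO (limma, adjusted p = 0.00201) and by 0.56 in Trsp-RIPKO (adjusted p = 0.0126). Nfya, a subunit of the factor that binds the Y box, was at least 1.84-fold lower in Trsp-Ins1KO (adjusted p = 0.0281), its partner Nfyc was higher by 0.22, and Creb1, an X box binder, fell by 0.71. In Trsp-RIPKO, Nfyc fell by 0.25. Rfx5, Rfxap and Rfxank, which form the X box complex, were called in no comparison.

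The remaining class II chains were dim. H2-Oa and H2-Eb2 were above background on no array. H2-Ob, the beta chain of the H2-DM inhibitor, was above background on no Trsp-Ins1KO array and was called lower there than in TrspFF (-0.56, limma, adjusted p = 0.047), with no fold bound above 1. Of 6 tested costimulation genes, 2 rose in Trsp-RIPKO against TrspFF (Cd80 by 0.68 and Cd274 by 0.62), 1 fell (Cd83 by 0.45), and 0 of 6 were called in Trsp-Ins1KO against TrspFF by limma (2 of 6 at an unadjusted p under 0.05). Over all genes, 36.4% were called in Trsp-RIPKO and 45.9% in Trsp-Ins1KO against TrspFF. Between the knockout lines, Cd80 and Cd40 were called lower in Trsp-Ins1KO (limma, adjusted p = 0.00525 and 0.0369), Cd40 being above background on no Trsp-Ins1KO array.

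**Figure D3:**
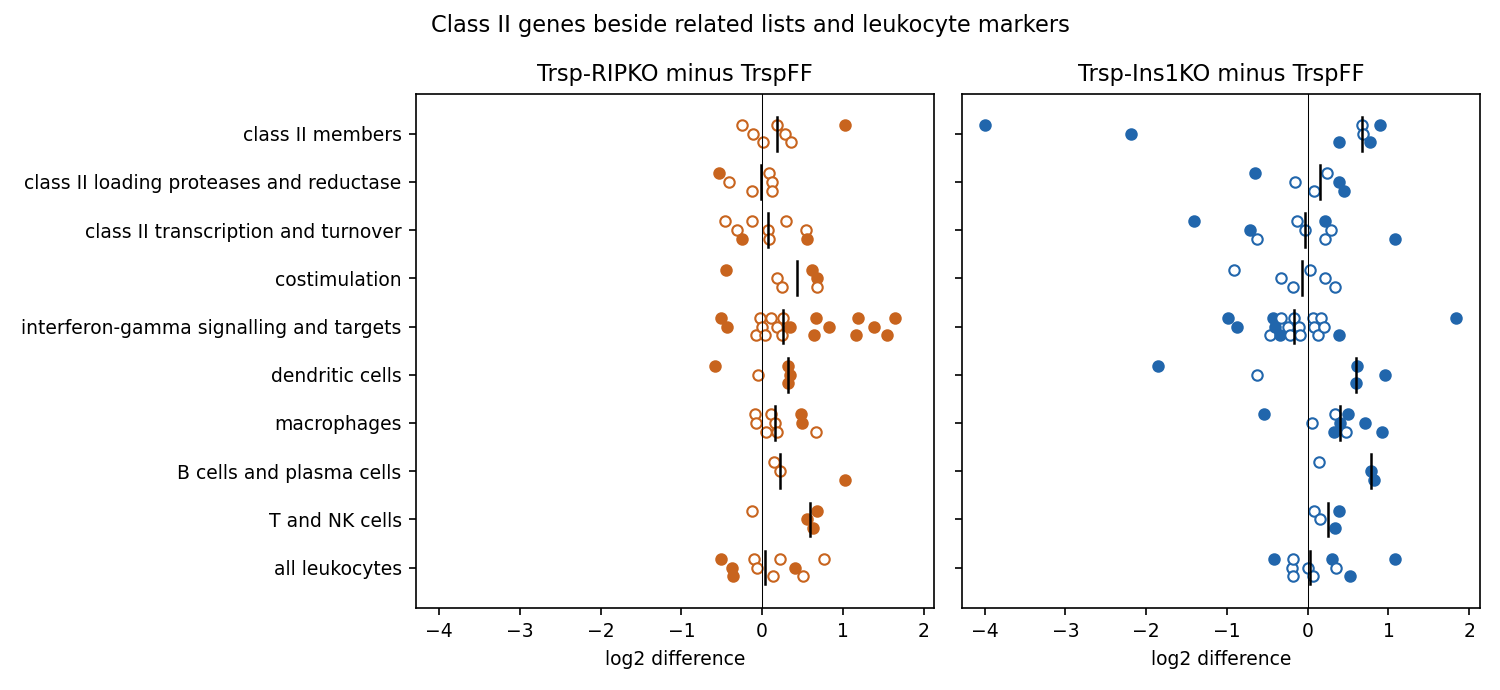
Log2 differences from TrspFF of the class II members, of related gene lists and of leukocyte marker lists (left, Trsp-RIPKO; right, Trsp-Ins1KO; x axis, log2 difference; each point a tested gene, filled where called at adjusted p under 0.05; black bar, the median of the list). The members spread from -3.99 to 0.89 in Trsp-Ins1KO minus TrspFF.

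Markers of leukocytes, the usual source of class II transcripts, moved in both directions. Their summed level over 12 pan-leukocyte genes on the array was 7.08 to 7.16 times the 75th percentile on TrspFF, 6.45 to 6.50 on Trsp-RIPKO and 6.78 to 6.82 on Trsp-Ins1KO. Without Fcer1g, the brightest of these genes, the sums were 5.05, 4.96 to 5.07 and 5.10 to 5.36 in the same order. Of the 10 tested, 3 were higher and 1 lower in Trsp-Ins1KO against TrspFF (Laptm5 higher by 1.08, Fcer1g differing by -0.41), and 1 higher and 3 lower in Trsp-RIPKO. For these and the marker counts below, 45.9% of all genes were called in Trsp-Ins1KO against TrspFF (23.0% higher, 23.0% lower). In Trsp-RIPKO against TrspFF, 36.4% were called (18.9% higher, 17.5% lower). Cd53 and Spi1 were above background on no array, and Ptprc (CD45) was above background on no Trsp-Ins1KO array.

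Macrophage markers were tested for 9 of 13 genes on the array. Against TrspFF, 5 were higher and 1 lower in Trsp-Ins1KO (Itgam higher by 0.92, Cx3cr1 by 0.71), and 2 were higher in Trsp-RIPKO (Csf1r by 0.49, Itgam by 0.48). Their summed level was 144 to 146 on TrspFF, 195 to 208 on Trsp-RIPKO and 260 to 279 on Trsp-Ins1KO, nearly all of it 1 probe, that of Itgam. Without Itgam the sums were 7.16 to 7.60, 8.91 to 9.45 and 9.03 to 9.34. Mrc1, Fcgr1, Mertk and Cd163 were above background on no array.

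Of 5 tested dendritic cell markers, 3 were higher and 1 lower in each knockout line against TrspFF. Itgax (CD11c) was higher by 0.95 in Trsp-Ins1KO, while Cd209a was at least 1.49-fold lower. Flt3, Xcr1, Clec9a, Ccr7 and Batf3 were above background on no array. The summed level was 210 to 236, 277 to 290 and 320 to 354 in the order TrspFF, Trsp-RIPKO and Trsp-Ins1KO, and without Siglech, a single bright probe, 0.733 to 0.755, 0.791 to 0.857 and 0.915 to 0.920.

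B cell and plasma cell markers were mostly undetected, with Ms4a1, Cd79a, Cd79b and Pax5 among the 9 of 12 above background on no array. Cd22 and Cr2 were called higher in Trsp-Ins1KO, and the sums were 1.42, 2.55 to 2.57 and 2.34 to 2.48 in the same order. Without Cd22, the brightest probe, they were 0.367 to 0.375, 0.390 to 0.438 and 0.546 to 0.574. T and NK cell sums were 8.32 to 9.06, 12.2 to 14.4 and 10.2, with 3 of 4 tested markers higher in Trsp-RIPKO and 2 higher in Trsp-Ins1KO. Without Cd3e, the brightest probe of that list, they were 4.17 to 4.35, 6.05 to 6.78 and 5.40 to 5.70. Cd3d, Cd3g, Cd8a, Cd8b1, Cd2, Cd247 and Klrb1c, 7 of 11 on the array, were above background on no array. The part of these leukocyte markers in the class II differences was not tested.

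Markers of other tissues also moved between the groups. Of all genes, 18.9% were called higher and 17.5% lower in Trsp-RIPKO against TrspFF, and 23.0% and 23.0% in Trsp-Ins1KO. Acinar genes were higher in 9 of 10 cases in Trsp-RIPKO and in 8 of 10 in Trsp-Ins1KO, against TrspFF. Intestinal epithelium genes, which can carry class II transcripts themselves, were higher in 7 of 8 tested cases in Trsp-RIPKO and in 4 of 8 in Trsp-Ins1KO. Of 13 on the array, 8 were above background on the Trsp-RIPKO arrays and 4 on the arrays of each other group, so some entered the test only through the group where they are high. Fibroblast genes were higher in 7 of 9 cases in Trsp-RIPKO, and in Trsp-Ins1KO 2 were higher and 6 lower. Endothelial genes were higher in 5 of 10 cases in Trsp-RIPKO, and in Trsp-Ins1KO 6 were higher and 1 lower. Among duct genes, 2 of 8 were higher and 2 lower in Trsp-RIPKO, and 1 higher and 1 lower in Trsp-Ins1KO. Of 3 tested lymph node stroma genes, 1 was higher in Trsp-RIPKO and 2 were lower in Trsp-Ins1KO, where Ccl19, a chemokine for dendritic cells and T cells, was called lower with 1 of 2 arrays above background. Their part in the class II differences was not tested.

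The class II genes of chromosome 17 lie close together, and their tested neighbours, looked at after the members' values were seen, were read in map order. From H2-Oa to H2-Ea, RefSeq lists 14 coding genes, of which 5 that are not members were tested. In Trsp-Ins1KO against TrspFF, Brd2 was higher by 0.64 and Tap2, a peptide transporter of the class I pathway, by 0.70, and H2-Ob was lower. Psmb9 and Psmb8, immunoproteasome subunits that lie between H2-DMb1 and Tap2, differed by -0.08 and -0.10 and were not called. The probes with large drops were therefore not neighbours in map order, since H2-DMb1 is parted from H2-Aa by Psmb9, Psmb8, Tap2, H2-Ob and H2-Ab1.

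**Figure D4:**
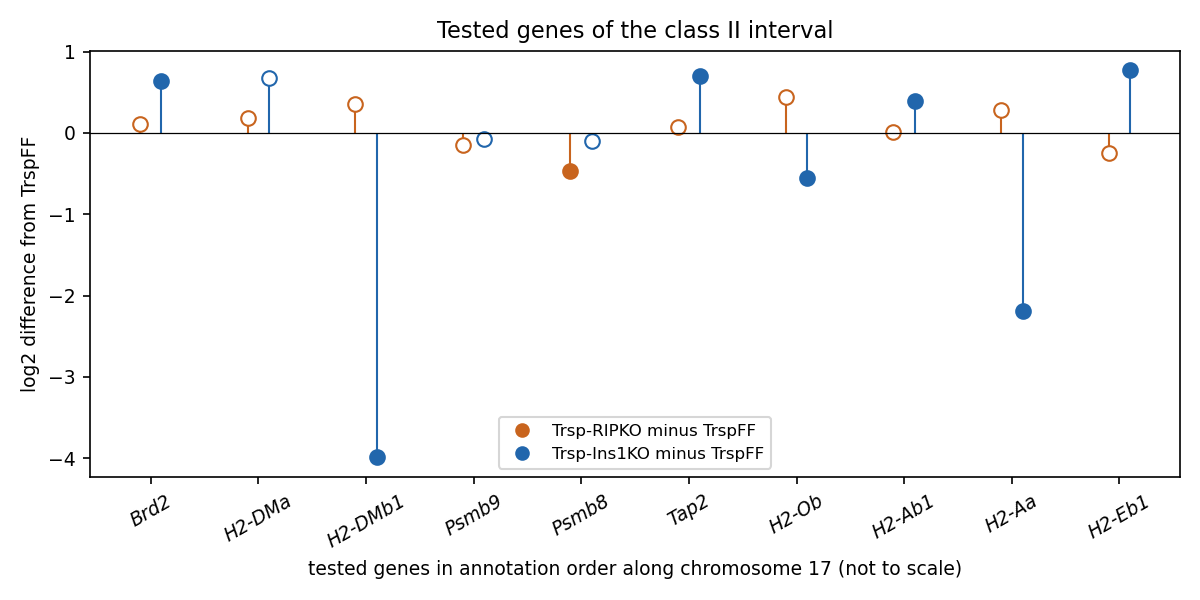
Log2 difference from TrspFF in Trsp-RIPKO (orange) and Trsp-Ins1KO (blue) for the tested genes of the class II interval of chromosome 17, in map order and not to distance (x axis, gene; y axis, log2 difference; filled, called at adjusted p under 0.05). In Trsp-Ins1KO, H2-DMb1 at -3.99 and H2-Aa at -2.18 stand apart from the other genes, which lie between -0.56 and 0.77.

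The 4 members above background on all arrays (H2-Ab1, H2-Eb1, H2-DMa and Cd74) leave out H2-Aa and H2-DMb1, which were not above background on 1 and 2 of the Trsp-Ins1KO arrays. The mean profile of these 4, each gene centred on its own mean, was -0.19 and -0.24 on TrspFF, -0.20 and -0.32 on Trsp-RIPKO and 0.60 and 0.34 on Trsp-Ins1KO. Among 11665 other genes above background on all arrays, the nearest to it by root mean square distance were Tprn (0.0300), Cnppd1 (0.0437), Pink1 (0.0474), Aars (0.0474), Lrp8 (0.0475), Socs3 (0.0487), Prkd2 (0.0501) and Gtf3c1 (0.0541). Leukocyte markers not above background on all arrays, Ptprc, Cd53 and Spi1 among them, could not be picked. That none of the 8 is a listed leukocyte marker therefore carries no conclusion. The 8 genes describe which probes had a like pattern over 6 arrays and carry no test.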

How the data were processed

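Messenger RNA of islets was read on 6 one-colour Agilent arrays, 2 in each of 3 groups, grouped by sample title. Per the file headers, the authors used Feature Extraction 10.7.3.1 on array design 026655. The deposited processed intensity is background-subtracted and not scaled between arrays, and the deposited 0 or 1 flags for spots above background, which are scores of the scanner software, were used as given. A table of log2 values, also deposited by the authors, was used as an alternative. From the intensity, log2 was taken and each array's 75th percentile subtracted. Control spots (1377) were left out. Probes were tested if above background on both arrays of at least 1 group (23199 probes), and the brightest stood for its gene (19021 genes). RefSeq accessions named 26053 probes (66.1%). limma 3.58.1 (lmFit, eBayes; 5.12 total degrees of freedom) fitted all 6 arrays, two-sided, with Benjamini-Hochberg adjustment over all genes, and was tested on simulated data. The number of arrays limits the precision. No spot of a member was saturated. The members and gene lists were chosen with earlier results of these data known. Named are all members, called genes of the pathway and costimulation lists, examples from the other lists (up to 3 called genes, and for leukocyte lists some of the brightest), and the 8 genes nearest to the mean profile of 4 members. The alternatives covered background correction, scaling, filters, probe choice, variance model, samples in the fit, slide, replicate block, the authors' table and each array left out.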

Additional observations from a re-analysis of the deposited data

Results flagged for a closer look

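In 4 of 7 tested members the knockout lines differed from each other when that difference was tested directly by limma over all genes, where 38.7% of all genes were called. H2-Aa differed by -2.46 (adjusted p = 0.00132) and H2-DMb1 by -4.35 (adjusted p = 0.000194), both lower in Trsp-Ins1KO, where H2-Aa was above background on 1 of 2 arrays and H2-DMb1 on neither, so that the latter is at least 4.19-fold lower. H2-Eb1 differed by 1.02 (adjusted p = 0.00199) and Cd74 by 1.01 (adjusted p = 0.00151), both higher in Trsp-Ins1KO. The lines lay on different slides, so slide and line cannot be told apart here.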

How the results depend on the processing

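H2-Aa, H2-DMb1, H2-Eb1 and Cd74 kept their direction and call in Trsp-Ins1KO against both other groups under every alternative that could be fitted with the scanner files' names. For Trsp-RIPKO minus TrspFF, the 1 member called became 2 with normexp, with the 75th percentile of probes above background on all arrays, with only the 2 groups fitted and with a trended, robust variance, 3 with median scaling, and 0 with quantile normalization and with no filter. Leaving out 1 array gave 0 to 2 there, 4 to 6 in Trsp-Ins1KO minus TrspFF and 4 to 6 between the knockout lines.

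Under the authors' table's own column names, 4 members were called in Trsp-RIPKO minus TrspFF and 1 between the knockout lines. Trsp-Ins1KO minus TrspFF then read 2.18 for H2-Aa, -0.39 for H2-Ab1, -0.77 for H2-Eb1, -0.68 for H2-DMa, 3.99 for H2-DMb1, -0.89 for Cd74 and -0.69 for Ciita, with H2-Ab1 at -0.38 and H2-DMa at -0.50 in Trsp-RIPKO minus TrspFF and at -0.015 and -0.18 between the lines.

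Small differences changed sign elsewhere. For Trsp-RIPKO minus TrspFF, H2-Ab1 read -0.0083 with normexp, -0.22 with median scaling, -0.0011 without Trsp-RIPKO replicate 2 and, over all arrays left out, from -0.0896 to 0.118 (without TrspFF replicates 1 and 2), and H2-DMa read -0.065 with quantile normalization, -0.058 with median scaling and, with 1 array left out, from -0.0093 without TrspFF replicate 2 to 0.37 without TrspFF replicate 1. Between the lines, Ciita read 0.36 with normexp (limma, adjusted p = 0.000591). The cause was not tested.

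With replicate number as a block, 1, 5 and 5 members were called in Trsp-RIPKO minus TrspFF, Trsp-Ins1KO minus TrspFF and between the lines, H2-DMa being called in both of the last (limma, adjusted p = 0.0093 and 0.0187). Deviations of same-numbered arrays correlated by 0.080 to 0.089. With only 2 numbers, this cannot show whether same-numbered samples are paired, and the labels do not say so.

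Over all genes, median scaling moved the median difference of Trsp-RIPKO minus TrspFF by -0.24, to 2013 higher and 7264 lower calls from 3592 and 3329. Between the lines it gave 5702 and 2351, and the 75th percentile of probes above background on all arrays 2986 and 4602, from 3669 and 3696. Normexp called 13974 genes in Trsp-Ins1KO minus TrspFF and 12065 between the lines, and no filter 2692, 13943 and 11645 in the 3 comparisons, from 6921, 8737 and 7365. Leaving out 1 array gave 862 to 7692, 3791 to 8242 and 4176 to 6578 calls. Signal over background limits H2-DMb2, Ciita, H2-DMa and, in Trsp-Ins1KO, H2-Aa and H2-DMb1.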

Other observations

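Genes of MHC class I presentation and of interferon-gamma signalling, whose cytokine is known to induce Ciita, are given beside the class II genes. Of 12 tested class I genes, 1 was higher and 1 lower in Trsp-RIPKO against TrspFF, and 2 were higher and 2 lower in Trsp-Ins1KO, of 36.4% and 45.9% of all genes called. Nlrc5, the class I transactivator, was higher by 1.27 in Trsp-RIPKO (limma, adjusted p = 0.00329) and by 0.62 in Trsp-Ins1KO (adjusted p = 0.00586). The class I heavy chain H2-K1 and its partner B2m fell by 0.67 and 0.56 on the log2 scale in Trsp-Ins1KO (adjusted p = 0.00274 and 0.00561), and neither was called in Trsp-RIPKO (0.06 and 0.16).

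Of 19 tested interferon-gamma genes, 9 were higher and 2 lower in Trsp-RIPKO against TrspFF (median 0.26), and 2 were higher and 5 lower in Trsp-Ins1KO (median -0.17). Over all genes, 36.4% were called in the first of these comparisons and 45.9% in the second. Tgtp1, Gbp6 and Iigp1, interferon-induced GTPases, were higher by 1.65, 1.54 and 1.39 in Trsp-RIPKO. In Trsp-Ins1KO, Gbp6 was higher by 1.84 and Cxcl9, a chemokine for T cells, was at least 1.53-fold lower (limma, adjusted p = 0.00949). Tested directly, 0 of the 19 were higher and 10 lower in Trsp-Ins1KO than in Trsp-RIPKO, where 38.7% of all genes were called in either direction.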
